A study of Mus musculus with 3 samples.

Results

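The genes described here are 30 genes at loci where common variants have been tied to glaucoma or to intraocular pressure, and they were taken by name from a list of risk genes. All 30 were found once among the 31053 genes of the count matrices, *Lhfp* and *Ank* under older or mouse symbols (*Ank* is the mouse name of *ANKH*). Cells of the ring of tissue where aqueous humor leaves the eye, the iridocorneal angle with the limbus, had been counted one by one in 3 droplet libraries. The 2 control libraries came from *Angpt1* flox/flox mice, and the single *Angpt1*ΔNC library came from *Angpt1* flox/flox;Wnt1Cre+ mice, in which Wnt1-Cre deletes the gene for angiopoietin-1 in neural crest derivatives. All mice were 6 weeks old and of a mixed, albino strain obtained by 2 generations of crossing onto ICR, and each library pooled 2 to 3 mice. The mesenchyme of the angle and its mural cells derive largely from the neural crest and the endothelium does not, so Wnt1-Cre acts outside the endothelium.

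Glaucoma is a progressive loss of the optic nerve for which raised intraocular pressure is the main risk factor. Aqueous humor leaves the eye through the trabecular meshwork (TM) and the canal of Schlemm (SC), an endothelial channel with lymphatic features, and angiopoietin-1 from the meshwork signals to the TEK receptor on that endothelium. Risk loci found by association in people name a stretch of DNA rather than a cell type, so the level of their genes over the cell types of the angle describes where each could act. By what their proteins do, the 30 genes fall into 3 matrix and secreted proteins, 6 transport and lipid genes, 11 adhesion and cytoskeleton genes, 5 transcription and cell cycle genes, 2 RNA binding proteins and 3 enzymes.

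Control replicate 1 had 9076 kept cells of 11255 called, control replicate 2 had 10160 of 12625 and *Angpt1*ΔNC had 6772 of 8614, and their median cell held 6329.5, 6393.5 and 7444 UMIs (unique transcript molecules). The 30 genes gave 101532, 112467 and 90856 UMIs, which is 0.132%, 0.140% and 0.137% of all UMIs. *Angpt1* stood at 134 and 114 CPM (UMIs per 1,000,000 UMIs) in the TM cells of the controls and at 0.899 in those of *Angpt1*ΔNC. Male and female mice were pooled per the labels, but the female transcript *Xist* was at 0.0390 and 0.0249 CPM in the controls and at 652 in *Angpt1*ΔNC. The controls thus stood apart from their label, and male-typed cells alone were fitted beside each genotype comparison. Kept cells shared 25 barcodes between the controls, 14 between control replicate 1 and *Angpt1*ΔNC and 13 between control replicate 2 and *Angpt1*ΔNC.

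Levels below are means over the cells of a cluster label of UMIs per 10,000 UMIs of the cell. They are given for the 34 of 35 deposited labels with at least 20 cells in each control, and the label LEC, lymphatic endothelial cells, was left out. The names of the labels follow the authors except where stated: SC, endothelial cells EC2 to EC4 (venous, choriocapillaris-like and arterial), mesenchymal cells TM1 to TM11 and numbered clusters, among them melanocytes (8 and 9), ciliary epithelium (7), surface epithelium (2 to 5), mural cells (19 to 21) and immune cells (22 to 25). Cluster 24, one of the clusters the authors called monocytes, is called macrophages here from *Lyz2*, *C1qa*, *Adgre1* and *Csf1r*, and TM1, which they called keratinocytes, is called keratocytes from *Kera*, *Lum* and *Aldh3a1*. Cluster 10 goes by its number here. The 4 Schlemm canal markers (*Prox1*, *Ccl21a*, *Plvap* and *Tek*) summed to 84.8 and 52.1 in the SC cells of the controls and to 13.1 in the 15 cells labelled SC in *Angpt1*ΔNC. Labels were made by clustering on expression, so differences between labels are descriptions without a test.

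At the level of 0.3 that the study used for SC and TM, the risk genes were seen over nearly all cell types of the angle. The study averaged wild-type cells, with TM3, TM4, TM5, TM7 and TM11 as TM. Here both controls had to pass and any TM label counted, so the counts are not those of the study. *Cttnbp2*, for example, is an SC gene in the study. A gene was above 0.3 in both controls in 317 of the 1020 pairs of gene and label (31.1%), beside 15.5% of the pairs over all 22479 genes detected in the controls. The 30 genes were chosen with earlier results of these data known. Some are on the study's own list of genes above 0.3 in SC or TM of these cells. Higher shares of the 30 here and below may thus be built in and are no test. At least 1 label held 24 of the 30 genes above 0.3, beside 38.9% of all detected genes. SC held 11 of them (36.7% of the 30, beside 16.9% of all detected genes). Any of the 11 TM labels, of 34 in all, held 19, and 20 were in SC or a TM label. The remaining 4 were above 0.3 elsewhere alone: *Cadm2*, *Bcas3*, *Txnrd2* and *Cdkn2b*. The highest label was SC for 2 genes, a TM label for 8 and another label for 20, although both controls named the same highest label for only 14. For the counts over TM labels and of highest labels no share of all detected genes is given. They do not set the risk genes apart from other genes. Counts per label ran from 2 genes in cluster 25, monocytes, to 15 in TM4, a label of trabecular and juxtacanalicular cells. These are 6.67% and 50.0% of the 30, beside 9.19% and 16.3% of all detected genes. In clusters 1, 7, 22 and 24 the share of the 30 was also below that of all detected genes. It was 10.0%, 13.3%, 10.0% and 10.0% there, beside 13.3%, 15.7%, 15.4% and 13.4%.

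**Figure D1:**
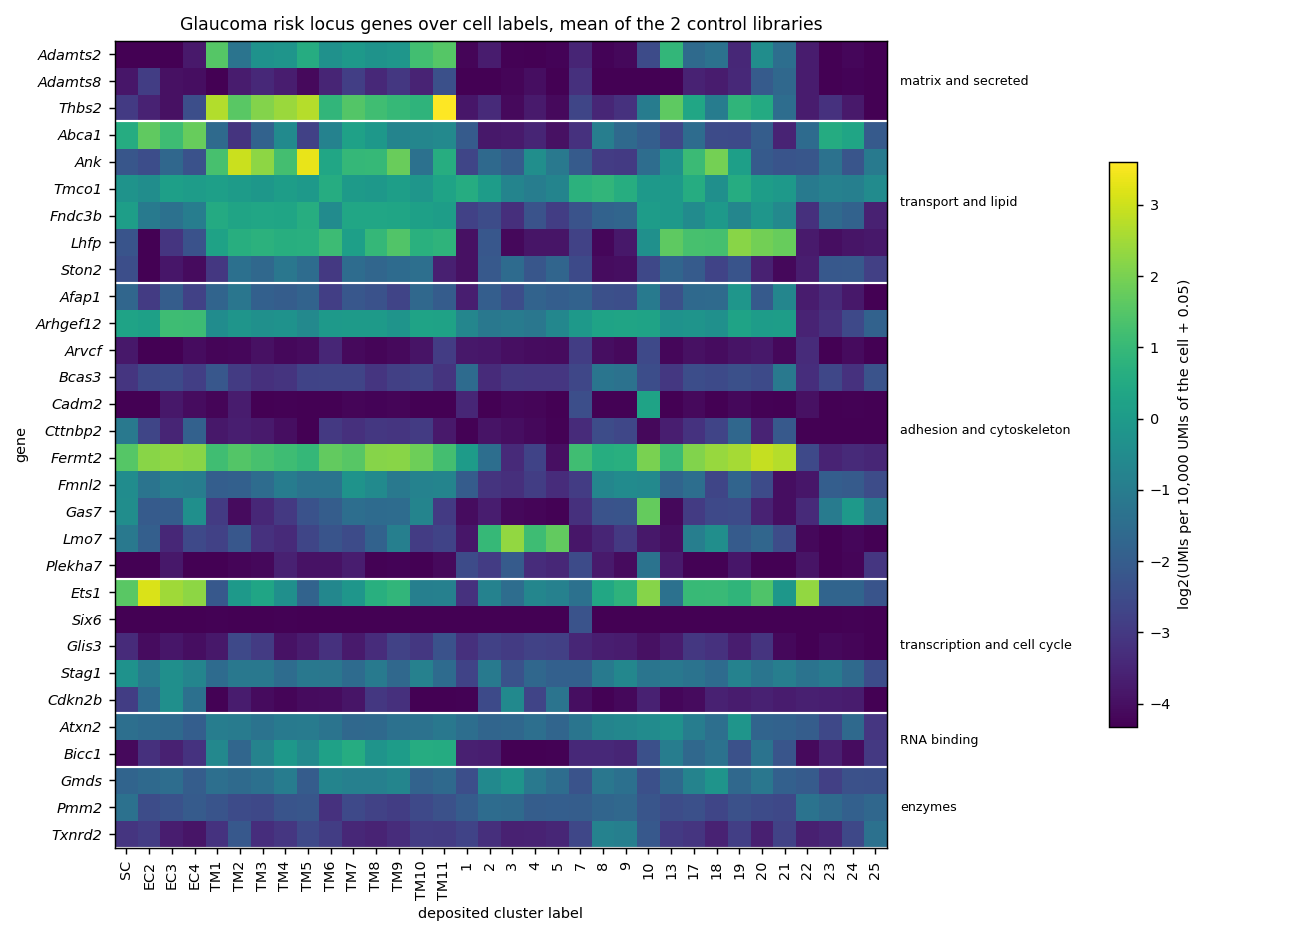
Levels of the 30 genes (rows, grouped by role) over the 34 labels (columns), as log2 of the mean level of the controls in UMIs per 10,000 UMIs plus 0.05. *Thbs2* and *Adamts2* are bright across the TM columns, *Lmo7* in the surface epithelium (2 to 5), *Ets1* in the endothelial columns, and *Six6* only dimly in cluster 7.

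Of the matrix and secreted genes, *Thbs2* and *Adamts2* marked the mesenchyme. *Thbs2* encodes thrombospondin-2, a matricellular protein that limits angiogenesis and matrix assembly. Its level was highest in TM11, a beam-like label, at 12.6 and 11.6 in the controls and 7.47 in *Angpt1*ΔNC, and the same label led in both controls. The median over labels was 0.277 and 0.344, and TM5 came next at 6.71 and 6.47. *Adamts2*, a protease that trims fibrillar procollagens, was also highest in TM11, at 2.98 and 2.67, closely followed by the keratocyte label TM1 at 2.66 and 2.92, so the order of these labels differed between controls. *Adamts8*, a metalloproteinase of the same family, was above 0.3 in both controls in no label. It was led by the vascular smooth muscle of cluster 21, at 0.234 and 0.307, although TM11 was higher in control replicate 1, at 0.279.

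Across the 34 labels the log2 levels of *Thbs2*, *Adamts2* and the RNA binding gene *Bicc1*, a regulator of Wnt and polycystin signalling, followed each other closely. Pearson's r was 0.940 for *Bicc1* and *Adamts2*, 0.932 for *Thbs2* and *Adamts2* and 0.914 for *Thbs2* and *Bicc1*. These are the pairs with the highest r among the 30 genes, and *Lhfp* and *Fndc3b* came next with r of 0.876 and 0.852 to *Thbs2*. The points are labels of the same cells and libraries, with shared depth, so r is a description. *Pmm2* stood opposite, with r of -0.777 to *Bicc1*.

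The starts of *Thbs2* and *Adamts2* are shown because the levels of both moved together over labels, and those of *Abca1* and *Cdkn2b* because these genes differed between genotypes in the endothelium. Each sequence is the 250 bases before the annotated start of the gene, on the strand of the gene, from RefSeq (GRCm38.p6). Capitals mark matches, on either strand, to the TATA box TATAAA, the CCAAT box CCAAT and the GC box GGGCGG, and no matches overlapped. *Thbs2* is at chr17:14665500-14694235 and *Adamts2* at chr11:50602084-50807573 in GRCm38 (GENCODE M21), and *Abca1* at chr4:53030787-53159895 and *Cdkn2b* at chr4:89306299-89311039.
Thbs2 (chr17:14694263-14694512, minus strand): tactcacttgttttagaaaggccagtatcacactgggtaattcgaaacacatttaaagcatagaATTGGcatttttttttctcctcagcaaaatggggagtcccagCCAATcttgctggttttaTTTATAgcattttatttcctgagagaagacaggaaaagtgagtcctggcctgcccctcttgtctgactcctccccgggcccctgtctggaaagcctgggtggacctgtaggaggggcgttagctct
Adamts2 (chr11:50601835-50602084, plus strand): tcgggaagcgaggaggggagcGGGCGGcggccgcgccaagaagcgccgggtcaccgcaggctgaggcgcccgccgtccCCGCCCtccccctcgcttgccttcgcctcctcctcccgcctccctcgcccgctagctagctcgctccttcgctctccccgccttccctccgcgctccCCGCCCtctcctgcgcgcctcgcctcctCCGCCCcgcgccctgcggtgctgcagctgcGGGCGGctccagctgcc
Abca1 (chr4:53159896-53160145, minus strand): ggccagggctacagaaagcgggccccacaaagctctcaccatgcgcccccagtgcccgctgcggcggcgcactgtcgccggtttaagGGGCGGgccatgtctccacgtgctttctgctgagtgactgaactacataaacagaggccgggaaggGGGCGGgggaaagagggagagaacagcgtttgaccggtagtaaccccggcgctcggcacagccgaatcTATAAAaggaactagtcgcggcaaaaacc
Cdkn2b (chr4:89311033-89311282, minus strand): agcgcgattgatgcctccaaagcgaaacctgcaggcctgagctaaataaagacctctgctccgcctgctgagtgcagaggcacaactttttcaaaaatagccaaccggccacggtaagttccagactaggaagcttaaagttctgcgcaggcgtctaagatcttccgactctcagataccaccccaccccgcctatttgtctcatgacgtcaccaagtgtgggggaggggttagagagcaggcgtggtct
The *Thbs2* sequence held 1 TATA box and 2 CCAAT boxes, a GC content of 46.8% and 3 CG dinucleotides. The *Adamts2* sequence held 5 GC boxes, a GC content of 78.0% and 34 CG dinucleotides, so these genes shared their pattern over labels while their starts had none of the searched motifs in common. *Abca1* held 1 TATA box and 2 GC boxes, and *Cdkn2b* matched none of the motifs. Among all 32841 RefSeq starts of the same length, 12.4% held the TATA box, 33.9% the CCAAT box and 32.8% the GC box. The table held 29 starts for 25 of the 30 genes, of which 3 held the TATA box, 8 the CCAAT box and 21 the GC box, with a median GC content of 65.6% beside 52.4% for all starts.

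Of the transport and lipid genes, *Ank* was highest in a mesenchymal label, *Lhfp* in a mural label and *Abca1* in an endothelial label. *Ank* encodes a membrane protein that exports pyrophosphate and restrains mineralization. Its level was highest in TM5, at 9.39 and 10.8 in the controls and 11.5 in *Angpt1*ΔNC, and the corneal endothelium of TM2 followed at 8.79 and 6.65. Over labels the median was 0.486 and 0.310. *Lhfp*, a tetraspan membrane protein, was highest in the smooth muscle of cluster 19, at 4.79 and 4.22. *Abca1*, which exports cholesterol to lipoproteins, was led by EC4 and EC2, whose order differed between the controls, at 3.54 and 3.13 in EC4 and 3.76 and 2.54 in EC2. Macrophages of cluster 24 had 1.12 and 1.29.

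*Tmco1*, an endoplasmic reticulum protein that prevents calcium overload, was the most widespread of the 30 genes. It was above 0.3 in 33 labels, all but the lymphocytes of cluster 22, and *Arhgef12* was above 0.3 in 30, all but the immune clusters 22 to 25. These 2 of the 30 genes reached 30 labels, near the share of 7.70% among all detected genes. The *Tmco1* level was highest in the melanocytes of cluster 8, at 1.70, 1.94 and 2.07 in control replicate 1, control replicate 2 and *Angpt1*ΔNC, and its median over labels was 0.841 and 1.04 in the controls. *Fndc3b*, a fibronectin domain protein of the endoplasmic reticulum, was above 0.3 in 21 labels with its highest level in TM5, at 1.5 and 1.46, and *Ston2*, an endocytic adaptor, was above 0.3 in TM4 alone, at 0.364 and 0.417.

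Among the adhesion and cytoskeleton genes, *Cadm2* and *Gas7* stood out in cluster 10 and *Lmo7* in the surface epithelium. *Cadm2*, a neural cell adhesion molecule, was above 0.3 in cluster 10 alone, with 1.36 and 0.949 in the controls and 1.54 in *Angpt1*ΔNC. At least 1 UMI was seen in 31.2% and 28.4% of its control cells, beside 7.28% and 4.67% in the ciliary epithelium of cluster 7, which is deeper at a median of 7949 and 6826 UMIs against 3881.5 and 4399. *Gas7*, which shapes the actin and microtubule cytoskeleton of neurites, was also highest in cluster 10, at 3.37, 3.11 and 2.80 in the order of libraries above, and macrophages followed at 0.962 and 0.847. *Plekha7*, an adherens junction protein, was in that cluster at 0.109 in control replicate 1 and 0.601 in control replicate 2, so it was counted above 0.3 in no label. A different gene held the surface epithelium: *Lmo7*, which joins junctions to the nucleus, had 4.88 and 5.06 in the conjunctival cells of cluster 3 and 6.56 in *Angpt1*ΔNC, with a median over labels of 0.112 and 0.111. In the controls clusters 5, 4 and 2 had 3.58 and 2.82, 2.33 and 1.94, and 2.26 and 1.59, and *Lmo7* was above 0.3 in 8 labels.

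**Figure D2:**
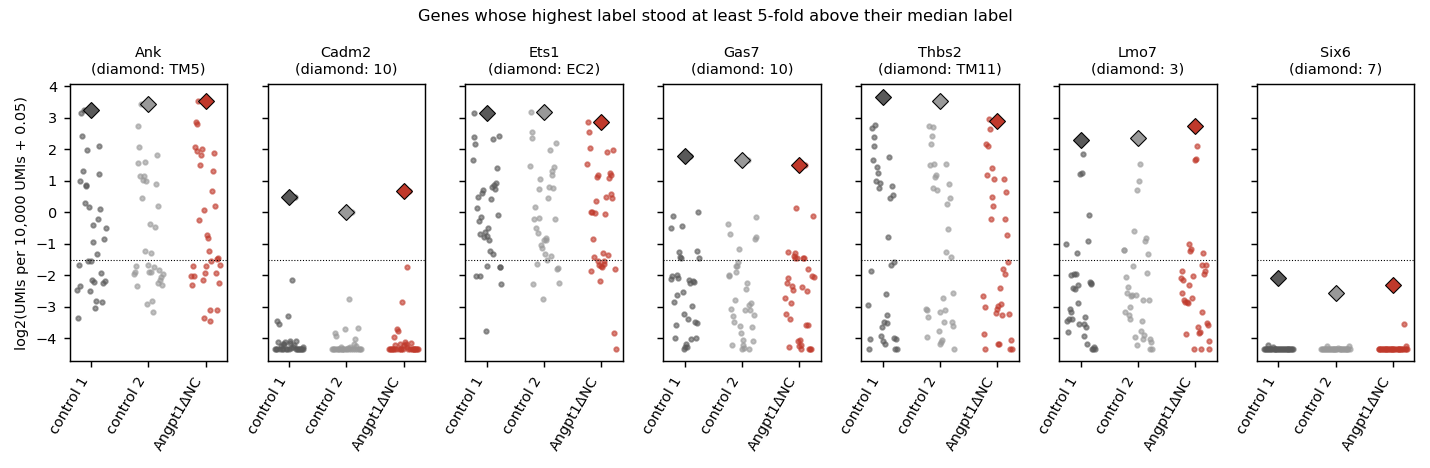
Levels of the 7 genes whose highest label was the same in both controls and at least 5 times their median label, as log2 of UMIs per 10,000 UMIs plus 0.05, per library. Small points are labels, diamonds the highest label, and the dotted line a level of 0.3. The diamond is at or near the top in each library, and for *Six6* it stays below the line.

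The other adhesion and cytoskeleton genes were broader. *Fermt2*, the integrin activator kindlin-2, was above 0.3 in 26 labels and highest in the pericytes of cluster 20, at 7.45 and 7.37. *Arhgef12*, an activator of RhoA, was highest in EC3, at 2.13 and 2.22 in the controls and 1.38 in *Angpt1*ΔNC. In EC4 the *Arhgef12* levels were 2.07, 2.15 and 1.28, yet over all endothelial cells the difference did not pass the test described below (log2 fold change -0.27, edgeR adjusted p = 0.34). *Afap1*, an actin filament cross-linker, was above 0.3 in 4 labels and highest in cluster 19, at 0.804 and 0.891, and *Bcas3*, a cytoskeletal and autophagy protein, was above 0.3 in cluster 21 and the melanocytes. *Fmnl2*, a formin that elongates actin filaments, was above 0.3 in 13 labels and highest in TM7, at 0.853 and 0.730. The catenin gene *Arvcf* and the cortactin binding gene *Cttnbp2* were above 0.3 in both controls in no label. *Arvcf* reached 0.0681 and 0.171 in cluster 10, and *Cttnbp2* reached 0.607 and 0.220 in SC, where the controls fell on either side of 0.3.

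Among the transcription and cell cycle genes, *Ets1* was the most endothelial. This ETS factor of endothelium and lymphocytes was highest in EC2, at 8.87 and 9.0 in the controls and 7.21 in *Angpt1*ΔNC, with a median over labels of 0.875 and 0.816. The lymphocytes of cluster 22 had 5.32 and 4.59. Cluster 10 had 4.966 and 3.885, above SC at 3.08 and 2.73 in the same controls, and 27 labels were above 0.3. *Six6*, a homeobox gene of the developing retina and optic nerve, was nearly confined to cluster 7. The ciliary epithelium there had 35, 11 and 34 *Six6* UMIs of the 37, 14 and 36 in all kept cells of control replicate 1, control replicate 2 and *Angpt1*ΔNC. Its level was 0.189, 0.118 and 0.153, and 6.33%, 6.54% and 7.19% of the cells had a UMI, beside 0.0714%, 0.0301% and 0% in the TM cells, where 0 of 1946 cells allows a share of up to 0.154%. None of these levels reached 0.3, so *Six6* counted among the genes in no label.

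*Glis3*, a zinc finger factor, was in no label either, and its levels in TM11 were 0.0333 and 0.265. *Stag1*, a cohesin subunit, was above 0.3 in 21 labels and led by SC, at 0.740 and 0.794, although EC3 was higher in control replicate 2, at 0.879. *Cdkn2b*, the cyclin-dependent kinase inhibitor p15, was above 0.3 in EC3, at 0.555 and 0.885, and in the conjunctival cells of cluster 3, at 0.768 and 0.489. Of the remaining genes, *Atxn2*, a regulator of translation, was above 0.3 in 12 labels and *Bicc1* in 13, led by cluster 19 at 0.835 and 0.804 and by TM10 at 1.63 and 1.25. Other labels were higher in 1 control each: cluster 13 at 0.852 for *Atxn2* in control replicate 1 and TM7 at 1.56 for *Bicc1* in control replicate 2. *Gmds* makes GDP-fucose and was led by cluster 18, at 0.856 and 0.778, although cluster 3 was higher in control replicate 1, at 0.920. *Pmm2* makes mannose-1-phosphate for glycosylation and was above 0.3 in SC and cluster 22 alone, and *Txnrd2*, the mitochondrial thioredoxin reductase, in the melanocytes of clusters 8 and 9 alone.

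Whether the genes differed between genotypes was asked in 6 cell classes, with UMIs summed per library and tested by edgeR's quasi-likelihood F-test, with Benjamini-Hochberg adjustment over all genes of the class and a threshold of 0.05. The test sets 2 control libraries against 1 and leaves 1 residual degree of freedom. The lone *Angpt1*ΔNC library is assumed to vary like the controls, each library is a pool, and p-values carry the spread of 2 control pools only. In the 6 classes, 10 differences in 9 of the 30 genes passed. Sex cannot be told apart from genotype in these libraries other than by the male-typed cells. Values of summed classes are in CPM, and fold changes are *Angpt1*ΔNC over control.

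**Figure D3:**
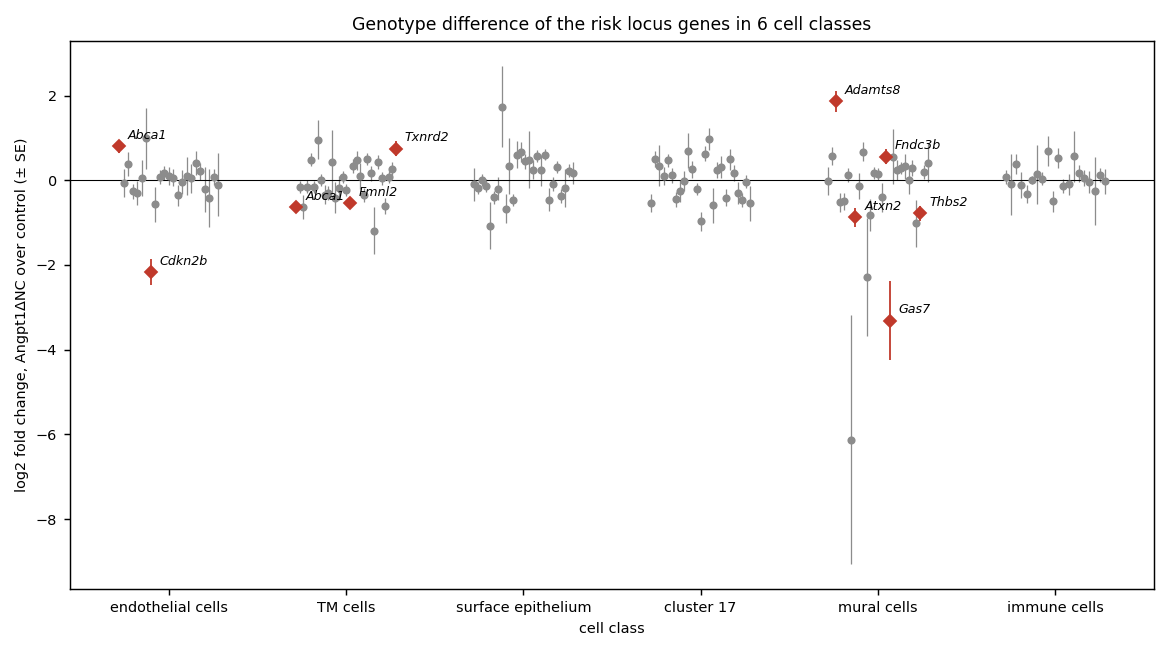
The log2 fold change of *Angpt1*ΔNC over control with its SE for each risk gene tested in each of 6 cell classes. Red diamonds with names passed at an adjusted p of 0.05, and gray points did not. *Abca1* is above 0 in endothelial cells and below 0 in TM cells.

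In the endothelium (SC, LEC and EC2 to EC4) *Abca1* rose and *Cdkn2b* fell in *Angpt1*ΔNC. The other 21 of the 23 genes tested did not pass, so 1 gene was higher and 1 lower, beside 8.12% of all 9660 genes tested higher and 4.82% lower. *Abca1* was at 248 and 236 CPM in the controls and at 376 in *Angpt1*ΔNC, above both. The log2 fold change was 0.80 (SE 0.15, edgeR adjusted p = 0.00023). *Cdkn2b* was at 41.9 and 46.2 CPM in the controls and at 8.72 in *Angpt1*ΔNC, with 107, 142 and 16 UMIs, and the log2 fold change was -2.17 (SE 0.31, edgeR adjusted p = 3.8e-06).

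Both differences were seen within the labels. Per 10,000 UMIs summed over a label, *Abca1* in EC3 was 2.17 and 2.29 in the controls and 3.44 in *Angpt1*ΔNC, with the exact 95% Poisson interval of the last from 2.95 to 4.00, which covers counting error only. In EC2 and EC4 *Abca1* was also above both controls, at 4.18 and 4.46 in *Angpt1*ΔNC, with intervals that overlapped those of the controls. *Cdkn2b* in EC3 was 0.556 and 0.793 in the controls and 0.160 in *Angpt1*ΔNC (interval 0.0691 to 0.315), and in EC4 0.435, 0.342 and 0.110. In the 37 EC2 cells and the 15 SC cells of *Angpt1*ΔNC no *Cdkn2b* UMI was seen, beside 8 and 6 in EC2 and 8 and 5 in SC of the controls. A count of 0 (up to 3 UMIs) allows a level of up to 0.0943 in EC2 and 0.204 in SC, and the control levels there were 0.386 and 0.167 in EC2 and 0.145 and 0.0735 in SC. A lower level in SC was thus not detectable at this depth.

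Markers of other cells were counted in the endothelial class. The 4 macrophage markers (*Lyz2*, *C1qa*, *Adgre1* and *Csf1r*) summed to a level of 0.365 and 0.0378 in the controls and 0.30 in *Angpt1*ΔNC, while macrophages had 105 and 116, and the 5 surface epithelium markers to 1.04, 0.598 and 0.701. The 3 erythrocyte markers stood at 48.0, 18.3 and 12.5. Their part in the result was not tested. In male-typed cells alone and with the same label makeup in each library, *Abca1* and *Cdkn2b* passed as well.

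In the TM cells (TM1 to TM11) the direction of *Abca1* was the opposite. This class holds keratocytes (TM1), corneal endothelium (TM2) and uveal labels beside those of the meshwork. *Abca1* was at 57.1 and 57.5 CPM in the controls and 36.8 in *Angpt1*ΔNC (log2 fold change -0.64, SE 0.14, edgeR adjusted p = 0.031). *Fmnl2* fell from 47.7 and 46.7 to 32.5 (-0.54, SE 0.14, adjusted p = 0.049 by edgeR) and *Txnrd2* rose from 7.82 and 7.44 to 12.8 (0.75, SE 0.18, adjusted p = 0.040 by edgeR). Of 29 genes tested 1 was higher and 2 lower, beside 3.46% higher and 5.52% lower of 13942 genes.

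The labels of the TM cells were mixed in other shares in *Angpt1*ΔNC. The uveal labels TM7 and TM8 had 667 and 591 cells in control replicate 1, 739 and 612 in control replicate 2 and 174 and 155 in *Angpt1*ΔNC, and their mean control levels were the highest of the 11 TM labels for *Abca1* and *Fmnl2* and the lowest for *Txnrd2*. With the same label makeup in each library, the log2 fold changes were -0.25 for *Abca1* (edgeR adjusted p = 0.32), -0.27 for *Fmnl2* (edgeR adjusted p = 0.30) and 0.59 for *Txnrd2* (edgeR adjusted p = 0.077), and none of the 3 passed. DESeq2 called none of the 3 either. In male-typed cells alone *Abca1* passed (-0.83, edgeR adjusted p = 0.0022), while *Fmnl2* (-0.36, edgeR adjusted p = 0.17) and *Txnrd2* (0.48, edgeR adjusted p = 0.26) did not. Within labels, *Abca1* was below both controls in 7 of 11 and above both in 1. In the uveal label TM8 its level was 0.873 and 0.882 in the controls and 0.528 in *Angpt1*ΔNC. The meshwork-like labels showed little or no fall: TM4 had 0.651, 0.646 and 0.641, TM5 0.116, 0.0731 and 0.122, and TM11 0.662, 0.578 and 0.653. TM7 had 0.997, 1.21 and 1.08. The 4 TM markers (*Myoc*, *Chil1*, *Chad* and *Nell2*) summed to 27.1 and 33.5 in the TM cells of the controls and to 17.2 in *Angpt1*ΔNC.

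*Abca1* also differed between the endothelial class and the class of TM1 to TM11 in its difference between genotypes. The interaction of class and genotype, TM minus endothelial cells with the library as a block, was -1.46 on the log2 scale (SE 0.14, edgeR adjusted p = 0.00056). It was the only one of the 30 genes to pass, beside 4.51% of 13667 genes in either direction.

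In the mural cells (smooth muscle of cluster 19, pericytes of cluster 20 and vascular smooth muscle of cluster 21) 2 of 27 genes tested were higher and 3 lower, beside 9.12% and 7.23% of 11606 genes. *Adamts8* rose from 14.7 and 11.4 CPM in the controls to 41.2 in *Angpt1*ΔNC (log2 fold change 1.86, SE 0.25, edgeR adjusted p = 7.4e-05). *Fndc3b* was higher by 0.56 (SE 0.17, edgeR adjusted p = 0.033), at 63.7 and 69.8 in the controls and 86.0 in *Angpt1*ΔNC. *Thbs2* fell from 140 and 145 to 72.9 (log2 fold change -0.78, SE 0.17, edgeR adjusted p = 0.0049), and *Atxn2* from 49.2 and 53.1 to 24.5 (-0.87, SE 0.22, edgeR adjusted p = 0.013). *Gas7* had 43 and 38 UMIs in the controls and 1 in *Angpt1*ΔNC, a ratio of 0.0852 (exact 95% interval 0.00213 to 0.488) with an edgeR adjusted p of 0.021.

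Cluster 19 had 387 and 499 cells in the controls and 54 in *Angpt1*ΔNC, and the 4 smooth muscle markers summed to 161 and 157 in the mural cells of the controls and to 76.0 in *Angpt1*ΔNC. *Thbs2*, *Atxn2* and *Gas7* had their highest mural level in this cluster. With the same label makeup *Adamts8* and *Thbs2* passed and *Fndc3b* (adjusted p = 0.23 by edgeR) and *Atxn2* (adjusted p = 0.22 by edgeR) did not, and *Gas7* was not among the genes tested. In male-typed cells alone *Adamts8*, *Thbs2* and *Atxn2* passed, while *Fndc3b* (adjusted p = 0.16 by edgeR) and *Gas7* (adjusted p = 0.11 by edgeR) did not. *Fndc3b* also missed without a filter on low counts (adjusted p = 0.055 by edgeR) and with DESeq2 (adjusted p = 0.42), so it passed under 1 of 5 alternatives. Within the pericytes of cluster 20, *Adamts8* was at 0.259 and 0.122 in the controls and 0.419 in *Angpt1*ΔNC, and *Thbs2* at 1.43 and 1.32 against 0.552. In cluster 19 *Thbs2* was 1.72 and 1.80 against 1.52, and in cluster 21 the libraries were at 0.287, 0.321 and 0.289. The gap of *Thbs2* to the controls was widest in the pericytes, and this difference between mural labels was not tested. *Adamts8* was above both controls in all 3 labels.

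**Figure D4:**
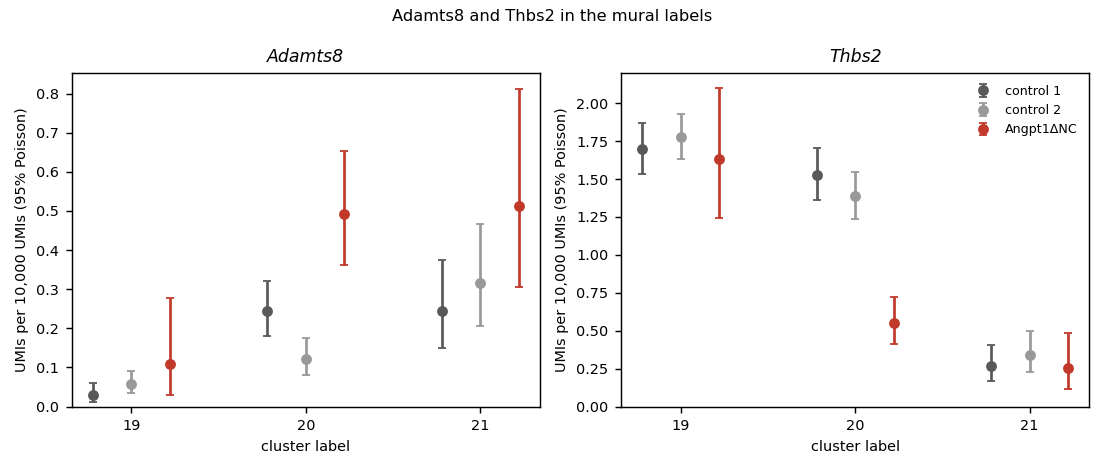
*Adamts8* (left) and *Thbs2* (right) in the mural labels of the 3 libraries, in UMIs per 10,000 UMIs summed over the label, with exact 95% Poisson intervals as bars. In cluster 20 *Thbs2* of *Angpt1*ΔNC is below both controls without overlap, and in cluster 21 the intervals overlap.

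In the surface epithelium (clusters 2 to 5), cluster 17 and the immune cells (clusters 22 to 25) no gene passed with edgeR. In the surface epithelium 0 of 26 genes were called, beside 0.0539% higher and 0.0847% lower of 12982 genes. Of the 26, 5 had an unadjusted edgeR p under 0.05, beside 20.3% of all genes tested. *Lmo7* was at 332 and 300 CPM in the controls and 454 in *Angpt1*ΔNC (log2 fold change 0.61, edgeR adjusted p = 0.12), above both controls in 4 of 4 labels, and DESeq2 called it alone. *Gmds* was at 42.5, 39.1 and 57.2 (0.57, edgeR adjusted p = 0.13), also above both in 4 of 4 labels. *Stag1* was above both in 4 of 4 as well, while *Atxn2*, *Ets1* and *Ston2* were below both in 4 of 4. *Cdkn2b* had a level of 0.370 and 0.183 in the controls and 0.159 in *Angpt1*ΔNC here, so the controls differed more from each other than control replicate 2 did from *Angpt1*ΔNC.

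In cluster 17, stromal cells without a firm name, 0 of 25 genes were called, beside 0.175% higher and 0.114% lower of 11444. Of the 25, 6 had an unadjusted edgeR p under 0.05, beside 20.4% of all genes tested, and DESeq2 called 0. In the immune cells 0 of 20 were called, beside 2.38% higher and 1.82% lower of 10395. Of the 20, 1 had an unadjusted edgeR p under 0.05, beside 17.1% of all genes tested, and DESeq2 called 0. The 60 other genes of the curated list of the study, counted in the same fits, had 4 higher and 2 lower of 35 tested in endothelial cells, 7 and 6 of 52 in TM cells and 9 and 5 of 45 in mural cells. In the immune cells 2 were higher and 1 lower of 27, and in the surface epithelium and cluster 17 none of 44 and 46 passed.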

How the data were processed

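Pooled limbal and iridocorneal angle tissue was dissociated and sequenced by the authors on a droplet platform. The authors deposited raw UMI counts per gene and called cell, made with Cell Ranger on mm10 (version 2.1.1 in the processing notes, 3.0.2 in the matrix headers), and a table over all kept cells, made with Seurat 3.1.3, from which only the cluster label of each cell was used here. Its integrated expression values for single genes were not used. No doublet caller was run here, and cells that the deposited label table does not hold were dropped.

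A level is the UMIs of a gene per 10,000 UMIs of a cell, averaged over cells. Counts were summed per class and library and tested with edgeR 4.0.16 (TMM, filterByExpr, quasi-likelihood F-test) in R 4.3.3, with DESeq2 1.42.0 as an alternative, and the procedure was tested on simulated data. Alternatives named in the closing section were listed with the tests. Intervals are exact at 95% (scipy 1.17.1) and cover counting error only. The risk genes and lists were chosen with earlier results of these data known. Per-library values are given for genes called in a class, genes whose highest label was the same in both controls and at least 5 times their median label, and genes above 0.3 in at least 30 labels or in none. Other genes are given by counts of labels and often by values per library in their leading labels or in a class. The libraries are pools, so the p-values measure the spread between pools, which may be technical.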

Additional observations from a re-analysis of the deposited data

Results flagged for a closer look

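The difference of *Abca1* between genotypes was itself different in the endothelial and the TM cells, a class that spans TM1 to TM11 and so includes corneal labels. The interaction, TM minus endothelial cells, was -1.46 on the log2 scale (SE 0.14, edgeR adjusted p = 0.00056). *Abca1* was at 248 and 236 CPM in the endothelial cells of the controls and 376 in those of *Angpt1*ΔNC, and at 57.1, 57.5 and 36.8 CPM in the TM cells. Normalization by RLE, no filter on low counts and DESeq2 gave log2 values from -1.48 to -1.43, with adjusted p from 1.9e-08 to 0.00060. The difference in TM cells had a log2 fold change of -0.25 once the libraries had the same label makeup, and the interaction was not fitted with that makeup.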

How the results depend on the processing

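Each count of called risk genes was recomputed with RLE size factors, without a filter on low counts and with DESeq2. The counts of the 6 classes were also recomputed in male-typed cells alone and, except for cluster 17, with the same label makeup in each library. With the alternatives for the pairs of gene and label, 29 of the 38 alternative counts, including those without one control, were within 1.5 times of the count reported. The others were as follows. Without a filter, 7 genes were called in TM cells, 3 in surface epithelium (*Cdkn2b*, *Gmds* and *Lmo7*) and 2 in the interaction (*Abca1* and *Cdkn2b*). DESeq2 called 0 in TM cells, 1 in surface epithelium and 1 in mural cells. With the same label makeup 0 were called in TM cells and 2 in mural cells, and in male-typed cells 3 in cluster 17 (*Fmnl2*, *Fndc3b* and *Thbs2*). No fold change turned its direction. Endothelial *Abca1* (log2 fold change 0.66 to 1.01, adjusted p up to 0.018) and *Cdkn2b* (-2.18 to -2.07, adjusted p up to 0.014) and mural *Adamts8* (1.33 to 2.17, adjusted p up to 0.0093) passed under all 5 alternatives. *Thbs2* in mural cells passed under 4 of 5, missing with DESeq2 (adjusted p = 0.065), and its log2 fold change was -2.0 in male-typed cells. *Gas7* has no DESeq2 adjusted p. In male-typed cells 3 genes were called in TM cells (*Abca1*, *Gas7* and *Ston2*), of which *Abca1* alone is among the 3 reported. Pairs of gene and label above 0.3 numbered 411 at a threshold of 0.2, 234 at 0.5, 296 with each cell thinned to 1000 UMIs and 352 to 357 without one control.

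The number of all genes called depended on the tool. Endothelial cells had 1250 with edgeR and 238 with DESeq2, TM cells 1251 and 617, mural cells 1898 and 505, surface epithelium 18 and 477, cluster 17 33 and 175, immune cells 436 and 82, and the interaction 616 and 223. Without a filter TM cells had 2441, surface epithelium 2005, cluster 17 13 and immune cells 886. With RLE size factors cluster 17 had 15 and immune cells 33. Surface epithelium had 266 with the same label makeup and 91 in male-typed cells, where cluster 17 had 443. The median log2 fold change of all mural genes was -0.24 without a filter and -0.14 in male-typed cells. The cause was not tested. With a lone *Angpt1*ΔNC library, leaving out either control gave fold changes only, from 0.78 to 0.83 for endothelial *Abca1* and from -2.24 to -2.07 for *Cdkn2b*. No paired analysis was possible because the groups share fewer than 2 replicate numbers, and these only name the libraries.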
